A study of Mus musculus with 15 samples.

Results

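The small leucine-rich proteoglycans described here were 9 genes, namely Lum, Dcn, Ogn, Bgn, Fmod, Omd, Aspn, Prelp and Kera. They were read through every array feature whose only gene symbol is 1 of these names. That gave 12 of the 45220 features in the value table, 10 of them with values, which covered 8 of the 9 genes and 8 of the 16401 genes measured in all. The only Kera feature and 1 of the 2 Bgn features were empty on all arrays, so Kera was not measured. Bulk cortex was profiled on 15 one-colour Agilent arrays from adult female mice. There were 5 arrays of sedentary SAMR1 mice, 5 of sedentary SAMP8 mice and 5 of exercised SAMP8 mice. SAMP8 mice are an inbred senescence-prone strain whose memory declines early, with the resistant SAMR1 strain as the usual control. No exercised SAMR1 group was analysed here, so exercise could be compared within SAMP8 only. The sources used here give neither the kind and length of the exercise nor the exact age. Replicates 1 to 5 are SAMR1 arrays, replicates 6 to 10 sedentary SAMP8 and replicates 11 to 15 exercised SAMP8, each labelled as biological. The labels do not settle whether RNA of single animals or pooled RNA was hybridised. The p-values set group differences against the spread between these samples.

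Small leucine-rich proteoglycans are secreted proteins built of leucine-rich repeats, most of which carry chondroitin, dermatan or keratan sulphate chains. They bind collagen fibrils and set their spacing and diameter, and several also bind growth factors of the TGF-beta family or receptors on the cell surface. In the brain they are known chiefly as products of the fibroblasts of the meninges and of the sheaths around larger vessels, rather than of neurons. Class I holds decorin (Dcn), biglycan (Bgn) and asporin (Aspn). Class II holds lumican (Lum), fibromodulin (Fmod), prolargin (Prelp), osteomodulin (Omd) and keratocan (Kera). Osteoglycin (Ogn), also called mimecan, belongs to class III.

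Most of these genes lie in clusters. Among protein-coding genes of the mouse assembly GRCm38.p6, used here only for names, neighbours and promoter sequence, Dcn, Lum, Kera and Epyc follow each other on chromosome 10. Ecm2, Aspn, Omd and Ogn follow each other on chromosome 13, and Optc, Prelp and Fmod on chromosome 1. Bgn lies on chromosome X between Haus7 and Atp2b3, with no gene of the family next to it. RefSeq promoter sequence on this build was at hand for 7 of the 9 genes, and not for Lum or Dcn. The 250 bases before the start are printed for 3 members that the results set apart. These are Prelp, which was higher in exercised SAMP8 than in SAMR1, Ogn, which had the closest partner among the other members, and Bgn, which had the lowest exercise difference of the members. The Prelp window is at chr1:133921402-133921651 on the minus strand, inside the annotated span of the gene. The Ogn window is at chr13:49607765-49608014 and the Bgn window at chrX:73483351-73483600, both on the plus strand. Capitals mark matches on either strand to the TATA box letters TATAAA, the AP-1 site TGANTCA, the letters CAGACA found in Smad boxes, or the GC box GGGCGG.
Prelp: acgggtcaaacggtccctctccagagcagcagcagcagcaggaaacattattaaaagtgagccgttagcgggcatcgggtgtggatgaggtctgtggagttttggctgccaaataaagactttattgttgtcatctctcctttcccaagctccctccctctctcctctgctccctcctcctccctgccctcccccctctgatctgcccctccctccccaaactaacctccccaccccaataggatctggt
Ogn: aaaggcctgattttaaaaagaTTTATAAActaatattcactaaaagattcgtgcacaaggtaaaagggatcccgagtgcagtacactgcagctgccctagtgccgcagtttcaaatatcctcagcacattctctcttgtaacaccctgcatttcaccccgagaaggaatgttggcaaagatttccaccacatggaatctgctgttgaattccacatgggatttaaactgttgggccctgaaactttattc
Bgn: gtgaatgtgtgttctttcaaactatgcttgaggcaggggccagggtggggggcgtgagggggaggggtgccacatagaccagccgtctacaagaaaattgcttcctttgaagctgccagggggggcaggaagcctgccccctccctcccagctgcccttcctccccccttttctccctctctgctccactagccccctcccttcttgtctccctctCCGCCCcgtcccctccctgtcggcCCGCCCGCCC

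The 3 windows differed in base composition, with 55.6% G or C in Prelp, 42.0% in Ogn and 64.4% in Bgn, against a median of 52.4% over 32851 promoters of this length. Bgn held 3 GC boxes, 2 of them overlapping, and 32.7% of all promoters held at least 1. Ogn held TATAAA at positions -227 to -222 from its start, overlapping a match on the other strand, and 12.4% of all promoters held that motif. Prelp held none of the 4 motifs. AP-1 and Smad letters were found in none of the 7 member windows, and in 6.75% and 17.1% of all promoters. These matches describe letters in a window and nothing more.

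Values are log2 Cy3 intensity. A difference of 1 on this scale is a doubling of intensity, and intensities of different features are not compared with each other because features differ in their binding. Each gene was read from its brightest feature, and differences were tested with limma over all 16401 genes, with Benjamini-Hochberg adjustment and a threshold of 0.05. In that fit 3.03% of all genes passed between sedentary SAMP8 and sedentary SAMR1, 1.85% in the higher direction, and 14.3% had an unadjusted p under 0.05. No detection flags were used. The lower quartile of intensity, at 6.17 on the log2 scale, serves as a mark of dim features. In the tissue check 0 of 8 measured neuronal markers and 0 of 9 glial markers lay under that quartile on all arrays. That count does not show that each of them was bright. Correlations between arrays ran from 0.968 to 0.988 over all features, 0 pairs were identical, and no array stood apart.

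The first comparison asked how sedentary SAMP8 cortex differed from sedentary SAMR1 cortex. Lumican, which binds collagen and keeps its fibrils evenly spaced, was the 1 of 8 measured members that rose. Decorin, osteomodulin, osteoglycin and prolargin were also higher on average, but missed the threshold over all genes. These 5 had an unadjusted p under 0.05. All 8 members had a positive difference, where 54.4% of all genes did. The median difference of the 8 was 0.408 on the log2 scale, against 0.019 over all genes. As tissue was measured in bulk, more cells of a type and more RNA per cell cannot be told apart. Earlier results of these data were known when the genes were chosen, so their shared direction is a description.

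**Figure D1:**
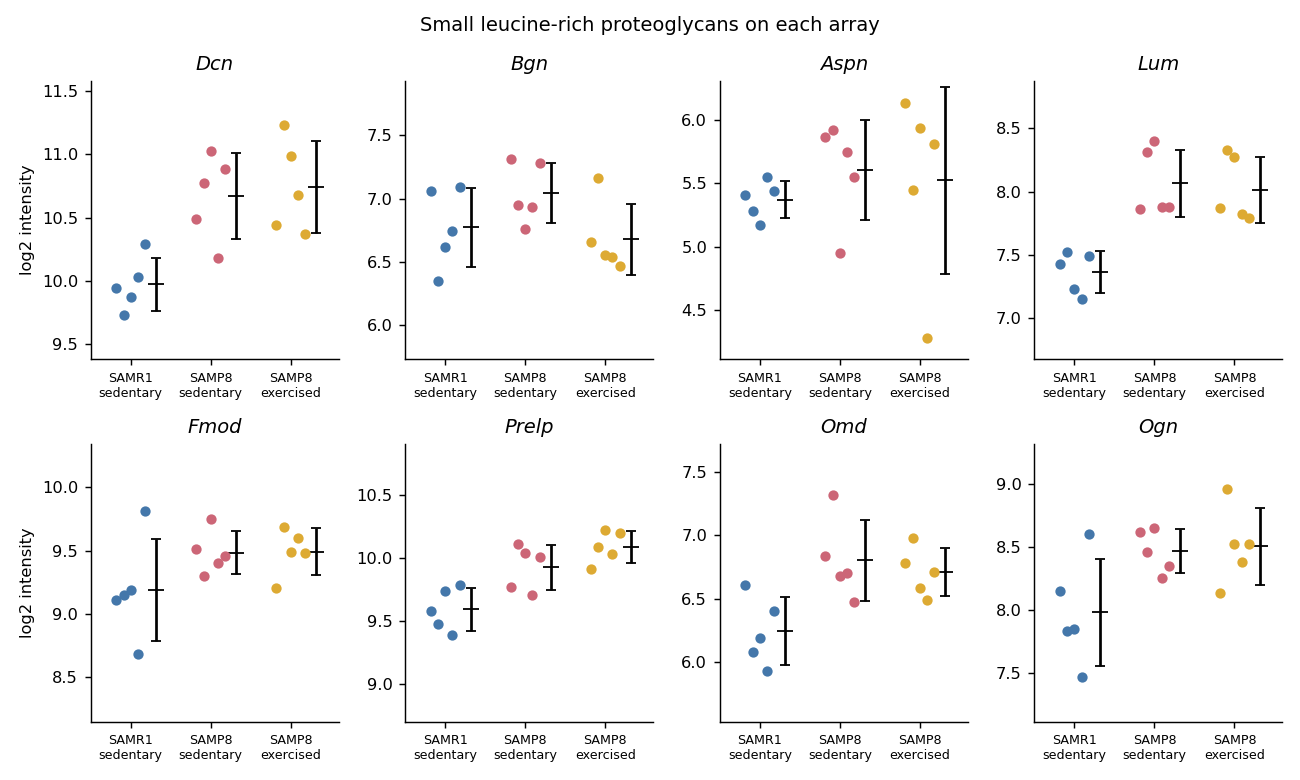
Log2 intensity of the 8 measured proteoglycans (brightest feature of each gene) on every array, with points for single arrays and the bar for mean ± SD of 5 arrays. All 10 SAMP8 arrays lie above the 5 SAMR1 arrays for Lum, while for the other 7 genes at least 1 sedentary SAMP8 array lies below the highest SAMR1 array.

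Among the class II members, Lum read 7.43, 7.52, 7.23, 7.15 and 7.49 on the SAMR1 arrays and 7.86, 8.31, 8.40, 7.88 and 7.88 on the sedentary SAMP8 arrays. The groups did not overlap, which held for 2.92% of all genes in this direction. Lum rose by 0.70 ± 0.14 (SE), or 1.62-fold (limma adjusted p = 0.0114). Within sedentary SAMP8, replicates 7 and 8 were the higher ones and the other 3 lay close together. Prelp, a collagen-binding protein that also attaches to basement membrane proteoglycan, read 9.58, 9.48, 9.74, 9.39 and 9.79 in SAMR1. Its sedentary SAMP8 values were 9.77, 10.11, 10.04, 9.71 and 10.01. Replicates 6 and 9 fell within the SAMR1 range, and the difference was 0.33 ± 0.10 (95% interval 0.11 to 0.55, limma adjusted p = 0.128).

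Omd, first described as a keratan sulphate proteoglycan of bone, read 6.61, 6.08, 6.19, 5.93 and 6.40 in SAMR1 and 6.84, 7.32, 6.68, 6.70 and 6.47 in sedentary SAMP8. Only replicate 10 of SAMP8 overlapped the SAMR1 values. The difference was 0.56 ± 0.16 (limma adjusted p = 0.0802), and 2 of the 5 SAMR1 arrays lay under the lower quartile of intensity, so its size rests partly on dim values. Omd passed without SAMR1 replicate 1 (0.65, adjusted p = 0.0391) or sedentary SAMP8 replicate 10 (0.64, 0.0479). Fmod, a regulator of collagen fibril assembly in tendon and other tissues, read 9.11, 9.15, 9.19, 8.68 and 9.81 in SAMR1 and 9.51, 9.30, 9.75, 9.40 and 9.46 in sedentary SAMP8. SAMR1 held both the lowest and the highest of these 10 values, and the difference of 0.29 ± 0.16 did not pass (95% interval -0.06 to 0.64, limma adjusted p = 0.446). It was 0.16 without SAMR1 replicate 4 and 0.45 without SAMR1 replicate 5 (adjusted p = 0.107).

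Of class I, Dcn, which wraps collagen fibrils and binds TGF-beta, gave a difference as large as that of Lum with a wider spread. It read 9.94, 9.73, 9.87, 10.03 and 10.29 in SAMR1 and 10.49, 10.77, 11.03, 10.18 and 10.88 in sedentary SAMP8. Only SAMP8 replicate 9 overlapped the SAMR1 values. The difference was 0.70 ± 0.18 (1.62-fold, 95% interval 0.31 to 1.09, limma adjusted p = 0.0557), just over the threshold. It passed without sedentary SAMP8 replicate 9 (0.82, adjusted p = 0.0213) and without exercised replicate 12 (0.0357) or 15 (0.0494). Those exercised arrays enter this difference only through the shared estimate of the spread.

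Bgn, a close relative of decorin that can also signal through Toll-like receptors, read 7.06, 6.35, 6.62, 6.74 and 7.09 in SAMR1 and 7.31, 6.95, 6.76, 6.93 and 7.28 in sedentary SAMP8. The groups overlapped, and the difference of 0.27 ± 0.17 did not pass (95% interval -0.08 to 0.63, limma adjusted p = 0.490). It was 0.17 without SAMR1 replicate 2. Aspn, a class I member that lacks the usual glycosaminoglycan attachment, lay under the lower quartile on all 15 arrays. Its values ran from 5.17 to 5.55 in SAMR1 and from 4.95 to 5.92 in sedentary SAMP8 (limma adjusted p = 0.777), so little can be read from it.

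Ogn, known from bone, muscle and vessel wall, read 8.15, 7.83, 7.85, 7.47 and 8.60 in SAMR1 and 8.62, 8.46, 8.65, 8.25 and 8.35 in sedentary SAMP8. SAMR1 replicate 5 lay inside the SAMP8 range and the other 4 SAMR1 arrays lay below it. The difference was 0.49 ± 0.19 (95% interval 0.09 to 0.88, limma adjusted p = 0.232).

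The second feature of 2 genes was dim. The other Dcn feature was under the lower quartile on all 15 arrays, with SAMR1 values between 3.17 and 5.20, sedentary SAMP8 values between 4.04 and 5.40 and exercised values between 4.53 and 5.83. Its strain difference was 0.45 ± 0.37, with limma adjusted p = 0.641 over all 34479 features. The other Prelp feature lay under it on all 10 sedentary arrays and on 3 of 5 exercised ones, and gave 0.15 ± 0.20 (limma adjusted p = 0.801). In this fit over features 2.61% of features passed, and among the 10 member features the Lum feature was again the 1 that did. 

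Exercise was then compared within SAMP8, where 0 of 8 members and 0% of all genes passed in limma. At an unadjusted p under 0.05 there was 1 member, Bgn, and 7.08% of all genes. Of the 8 differences 4 were positive and 4 negative, where 55.4% of all genes were positive. No member's groups stood apart in the higher direction, and 0.732% of all genes did. Over the 8 members the median difference was -0.018 on the log2 scale against 0.02 over all genes. The 95% interval of the difference spanned 0 for 7 members.

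Lum read 7.87, 8.33, 8.27, 7.82 and 7.79 on the exercised arrays, 2 of them near 8.3 and 3 near 7.8, much as in sedentary SAMP8. Its difference was -0.04 ± 0.14, and the 95% interval ran from -0.35 to 0.26 (limma adjusted p = 0.969). Dcn read 10.44, 11.23, 10.99, 10.68 and 10.37 after exercise, with replicate 12 above and the other 4 within the sedentary range. The difference was 0.07 ± 0.18 (95% interval -0.32 to 0.46, limma adjusted p = 0.962). Prelp read 9.91, 10.09, 10.22, 10.03 and 10.20, with a difference of 0.16 ± 0.10 (-0.06 to 0.38, limma adjusted p = 0.764). For Ogn the values were 8.13, 8.96, 8.52, 8.38 and 8.52 and the interval ran from -0.36 to 0.43. For Omd they were 6.78, 6.98, 6.58, 6.49 and 6.71, with an interval from -0.43 to 0.24. Fmod read 9.20, 9.69, 9.49, 9.60 and 9.48, with an interval from -0.34 to 0.36. These intervals do not show that exercise left the genes alike, and changes within them could not be detected with 5 arrays a group.

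Bgn had the lowest exercise difference of the 8 members. It read 6.66, 7.16, 6.55, 6.54 and 6.47 after exercise. All of these but replicate 12 lay under the lowest sedentary SAMP8 value of 6.76. The difference was -0.37 ± 0.17 (95% interval -0.72 to -0.02, limma adjusted p = 0.687), and -0.49 without exercised replicate 12. Aspn ran from 4.28 to 6.14 on the exercised arrays, the widest spread of the 8 members in this group, all under the lower quartile.

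**Figure D2:**
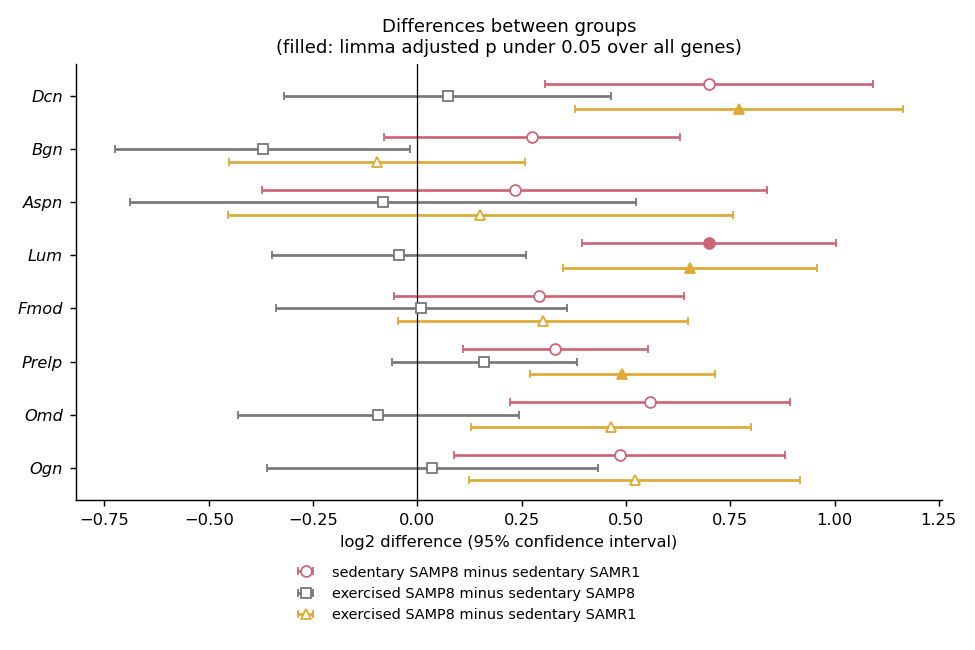
Log2 difference of each measured proteoglycan in the 3 comparisons, with limma's 95% confidence interval; filled symbols mark an adjusted p under 0.05 over all 16401 genes. Lum is filled in both comparisons against SAMR1, Dcn and Prelp in exercised SAMP8 against SAMR1, and no symbol is filled for exercised against sedentary SAMP8.

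Exercised SAMP8 was also set against sedentary SAMR1. These differences share the SAMR1 arrays with the sedentary comparison, so they are no second test of the strain, and strain and exercise are combined in them. Of the 8 members 3 rose, where 4.26% of all genes passed and 2.8% rose. At an unadjusted p under 0.05 there were 5 members and 18.2% of all genes. Lum rose by 0.65 ± 0.14 (1.57-fold, limma adjusted p = 0.0159), Dcn by 0.77 ± 0.18 (1.71-fold, limma adjusted p = 0.0257) and Prelp by 0.49 ± 0.10 (1.40-fold, limma adjusted p = 0.0131). For each of the 3 the exercised and the SAMR1 values did not overlap, which held for 3.96% of all genes in that direction. In the fit over genes, Lum and Prelp passed whichever array was left out. Dcn did not pass without SAMR1 replicate 1, 2 or 3 or exercised replicate 12 or 13 (0.65 to 0.76, adjusted p 0.0528 to 0.0695). In the fit over all features, where 3.28% passed, the brighter features of Dcn (adjusted p = 0.0326) and Prelp (0.0184) passed with Lum. There 0 member features passed without SAMR1 replicate 4 or exercised replicate 13. The dim Prelp feature gave 0.13 ± 0.20. With the mean of both features Prelp had 0.31 (adjusted p = 0.213).

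Of the members that did not pass there, Ogn had 0.52 ± 0.19 (limma adjusted p = 0.141) and Omd 0.46 ± 0.16 (0.120). Ogn passed without SAMR1 replicate 5 (0.68, adjusted p = 0.0387). Fmod had 0.30 ± 0.16, Aspn 0.15 ± 0.28 and Bgn -0.10 ± 0.17. With 7 of 8 differences positive, where 58.6% of all genes were, Bgn was the exception. The median was 0.478 on the log2 scale, against 0.038 over all genes.

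Markers of meningeal and perivascular fibroblasts were also mostly higher in SAMP8. Of 22 such genes, none of them a member, 20 were positive between the sedentary strains, where 54.4% of all genes were. Their median was 0.251, and 2 rose, where 1.85% of all genes rose. The 2 that rose were Fbln1, the matrix glycoprotein fibulin-1 (0.62 ± 0.12, limma adjusted p = 0.00746), and Thbd, thrombomodulin (0.60 ± 0.14, 0.0236). The 2 negative ones were Ptgds (-0.12) and Alx4 (-0.10), and neither passed. In exercised SAMP8 against SAMR1, 4 rose and 0 fell: Thbd (0.62), Fbln1 (0.52), the transcription factor Foxc1 (0.39) and the sulphate transporter Slc13a4 (0.59). There 19 were positive and 3 negative, namely Ptgds (-0.29), Alx4 (-0.16) and Crabp2 (-0.09). Over all genes 58.6% were positive in that comparison and 2.8% rose. Within SAMP8 0 of the 22 passed after exercise. A score was formed for each array, as the average log2 value of the listed genes after each gene's mean over the 15 arrays was removed. On SAMR1 arrays it lay between -0.476 and 0.004. The sedentary SAMP8 arrays lay between -0.014 and 0.279, and the exercised ones between -0.023 and 0.209. The summed intensity of the list, which its brightest genes dominate, spanned 26914 to 48202, 35056 to 47120 and 29599 to 42302 in the same order. Crabp2 and Cped1 were under the lower quartile on all arrays.

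**Figure D3:**
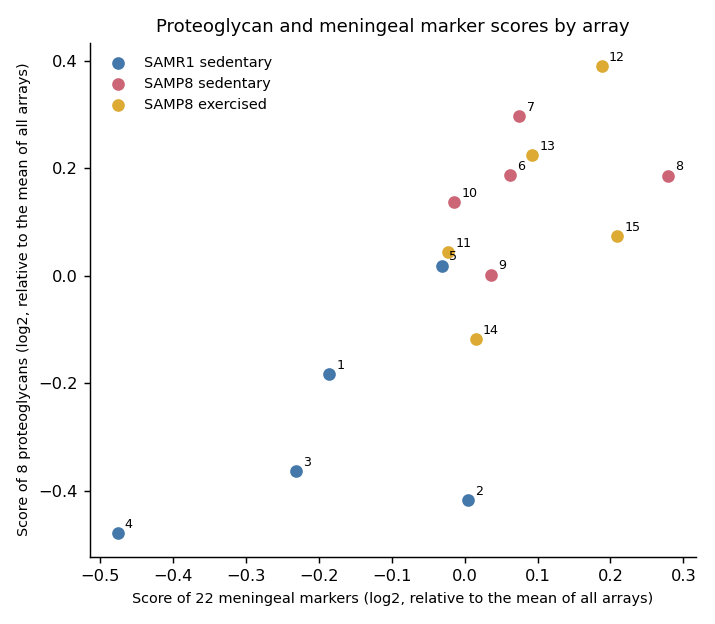
Score of the 8 measured proteoglycans against the score of 22 meningeal markers on each array, both on the log2 scale relative to the mean of all arrays, with replicate numbers beside the points. SAMR1 arrays 1, 3 and 4 lie at the lower left, SAMR1 array 5 lies close to SAMP8 arrays 9 and 11, and SAMR1 array 2 is low in proteoglycans only.

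With the meningeal score as a covariate in the fit over all genes, 0 of 8 members passed in any comparison. The strain difference was then 0.42 ± 0.16 for Lum (limma adjusted p = 0.359), 0.57 ± 0.25 for Dcn (0.451), 0.41 ± 0.21 for Omd (0.549) and 0.06 ± 0.19 for Ogn (0.946). Fmod went from 0.29 to -0.09. For exercised SAMP8 against SAMR1 the differences were 0.36 for Lum, 0.64 for Dcn and 0.34 for Prelp. Over all genes 205 passed between the sedentary strains with the covariate and 497 without it. As the score itself was mostly lower in SAMR1, score and strain cannot be fully told apart in this fit. Whether the amount of meninges on the dissected cortex had a part in the proteoglycan values was not tested.

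Other tissue next to the cortex was checked in the same way. Over all genes 54.4% were positive and 1.85% rose between the sedentary strains. For exercised SAMP8 against SAMR1 the shares were 58.6% and 2.8%. Choroid plexus markers were positive in 12 of 12 genes between the sedentary strains, with a median of 0.675, and 1 rose, the water channel Aqp1 (1.01 ± 0.25, limma adjusted p = 0.0388). Aqp1 was under the lower quartile on 3 of 15 arrays, with a SAMR1 mean of 5.98. Otx2 was under it on 12 arrays, Cldn2 on 14 and Slc4a5 on all. Against SAMR1, exercised SAMP8 had 10 of 12 positive, with a median of 0.72, and Aqp1 rose by 1.07 (0.0236). The scores ran from -0.956 to 0.498 in SAMR1 and from -0.499 to 0.974 in sedentary SAMP8, and their summed intensity from 872 to 3217 and from 1386 to 4747. Of 10 pericyte and smooth muscle markers 9 were positive and 1 rose, the potassium channel subunit Kcnj8 (0.57 ± 0.11, limma adjusted p = 0.00750), whose other feature gave -0.26. Exercised SAMP8 against SAMR1 gave 6 of 10 positive, near the 58.6% of all genes. There 2 rose, Kcnj8 (0.56, limma adjusted p = 0.00712) and the pericyte receptor Pdgfrb (0.46, 0.0194). Of 10 endothelial markers 1 fell, the thyroid hormone transporter Slco1c1 (-0.73 ± 0.12, 0.00216), which also fell by 0.86 in exercised SAMP8 against SAMR1 (0.000459). Bone and cartilage markers (5 measured) and red blood cell genes (4 measured) had 0 that passed, with medians of 0.335 and 0.342 between the sedentary strains. The smallest p there belonged to Cnmd (0.47), which was under the lower quartile on all arrays, and Sp7 (0.33), and in the other list to Alas2 (0.53) and Hbb-bt (0.40). In exercised SAMP8 against SAMR1 they belonged to Cnmd (0.58) and Bglap (0.54), and to Alas2 (0.56) and Hbb-bt (0.49). Sp7 and Bglap were each under the lower quartile on 10 of 15 arrays. The part of these tissues in the proteoglycan values was not tested.

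Within groups, the members varied from array to array in part together. As a description over 15 arrays, each value was taken as its deviation from the group mean. Of 28 pairs of members 23 had a positive Pearson's r, and among the 21 pairs without the dim Aspn r ran from 0.023 to 0.866, with a median of 0.455. Pairs of other genes were not counted, so whether members vary together more than genes at large was not tested. Of those 21 pairs, 19 had a positive Spearman's rho, and 16 kept a positive r without the 2 arrays farthest out in the first gene of the pair. The 5 that turned negative were Lum with Bgn, Dcn with Omd, Bgn with Fmod, Bgn with Prelp and Fmod with Omd (-0.06 to -0.278). The highest was Ogn with Fmod (r = 0.866, Spearman's rho = 0.739, and r = 0.678 without the 2 arrays farthest out in Ogn). The chromosome 10 neighbours Lum and Dcn had r = 0.672 (rho = 0.625, and 0.495 without the 2 arrays farthest out in Lum). The chromosome 13 neighbours Ogn and Omd had r = 0.515 (0.413 without the 2 arrays), and the chromosome 1 neighbours Fmod and Prelp 0.549 (0.252). The highest pair, Ogn with Fmod, joins genes of different chromosomes.

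**Figure D4:**
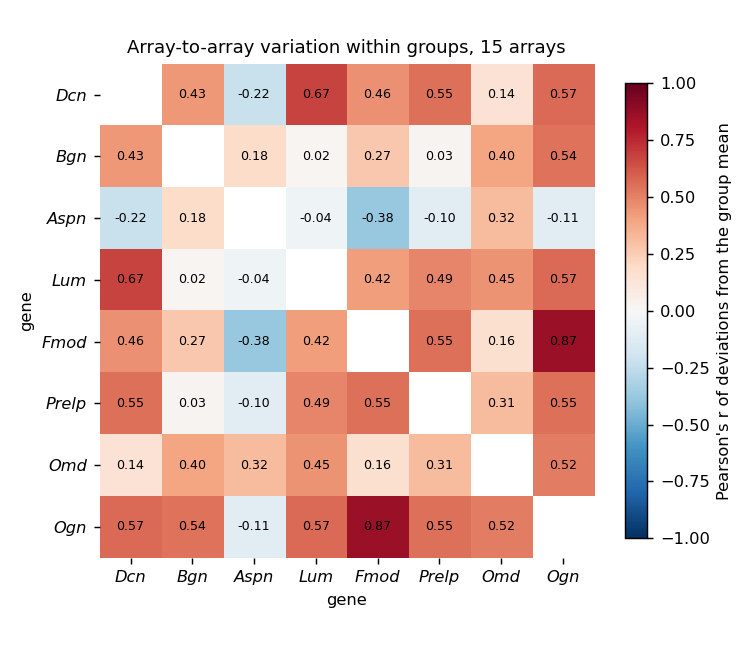
Pearson's r between pairs of members over 15 arrays, from deviations of log2 intensity from the group mean; red is positive and blue negative. Ogn with Fmod (0.87) and Lum with Dcn (0.67) are the highest pairs, and Aspn is negative with 5 of the other 7.

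The same deviations were set against the meningeal score, again with the group means removed. Fmod (r = 0.732, rho = 0.550), Ogn (0.701, rho = 0.704) and Lum (0.627, rho = 0.586) followed it, Prelp (0.471) and Omd (0.293) less closely. Fmod and Ogn deviated most on SAMR1 replicates 4 (-0.508 and -0.509) and 5 (0.622 and 0.618). For the list scores no r without the arrays farthest out was taken. Dcn had r = 0.210, Bgn -0.124 and Aspn -0.163. These are from 56 correlations of the 8 members with the scores of 7 lists, of which 8 were above 0.5 and 1 under -0.5. Bgn had r = 0.657 (rho = 0.743) with the cortical neuron score and -0.525 with the fibrillar collagen score. Fmod (0.523) and Prelp (0.514) followed the fibrillar collagen score, and Fmod (0.535) and Ogn (0.523) the red blood cell score. Against the choroid plexus score no member had r above 0.383. All of these share the arrays and their normalization. Among 13187 other genes above the lower quartile, the 10 with the highest r to the mean standardized deviation of the 8 members were Slc12a7 (r = 0.840), Vhl (0.830), Gng3 (0.821), Cdh1 (0.820), Spem2 (0.814), Cfhr2 (0.808), Msln (0.800), Serpinf1 (0.772), Btbd6 (0.772) and Ndufv1 (0.768). Without the 2 arrays farthest out these lay between 0.613 and 0.844. They are the top of a search over many genes with 15 arrays, and none of them is in a marker or partner list used here.

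The partners of these proteoglycans gave a mixed picture between the sedentary strains. Over all genes 54.4% were positive and 3.03% passed there, and 4.26% passed in exercised SAMP8 against SAMR1. Of 12 fibrillar and associated collagens measured, 0 rose and 1 fell. The one that fell was Col11a2, a chain of the minor fibril collagen of cartilage, at -1.21 ± 0.11 (limma adjusted p = 4.65e-06), while its other feature gave -0.17 and its call rests on the brighter one. Col1a1, the main chain of the fibrils that decorin and lumican bind, had 0.62 ± 0.17 (limma adjusted p = 0.0605). In exercised SAMP8 against SAMR1 it rose by 0.79 ± 0.17 (limma adjusted p = 0.0118), the median of its other 10 features was 0.725, and Col11a2 fell by 0.98.

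Of 21 ligands, receptors and binding proteins of the TGF-beta and BMP families, 2 rose and 0 fell between the sedentary strains. Bmp7 rose by 1.00 ± 0.14 (limma adjusted p = 0.000589) and Bmp6 by 0.52 ± 0.11 (0.0114), both of them bone morphogenetic proteins. The median of the other 10 Bmp7 features was 0.452. Bmp4 had 0.37 ± 0.11 (limma adjusted p = 0.105), and in exercised SAMP8 against SAMR1 it rose by 0.42 (0.0450) beside Bmp7 (1.04) and Bmp6 (0.56). Tgfb1, the ligand best known as a partner of decorin, had 0.01 ± 0.18 between the sedentary strains and Tgfb2 0.03 ± 0.12.

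Of 12 cell-surface receptors reported for these proteoglycans, 0 passed between the sedentary strains. Tlr4, a Toll-like receptor that biglycan can engage, had 0.42 ± 0.13 (limma adjusted p = 0.112) and the insulin receptor Insr -0.22 ± 0.08 (0.210). Tlr4 rose in exercised SAMP8 against SAMR1 (0.59 ± 0.13, limma adjusted p = 0.0163), and lay under the lower quartile on 3 of 15 arrays. Of 25 enzymes that build chondroitin, dermatan and keratan sulphate chains, 0 passed in any comparison. The smallest p between the sedentary strains belonged to Chsy3, a chondroitin synthase (-0.40 ± 0.11, limma adjusted p = 0.0577), and Chst14, a dermatan sulphotransferase (0.34 ± 0.10, 0.0974). With exercised SAMP8 set against SAMR1 it belonged to Csgalnact1, which starts chondroitin chains (-0.37, 0.110), and Chst14 (0.29, 0.118).

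Among 19 proteases, inhibitors and crosslinking enzymes, 2 rose and 1 fell between the sedentary strains. Loxl1, a lysyl oxidase family member that crosslinks elastin, rose by 0.49 ± 0.11 (limma adjusted p = 0.0158), and Mmp2, gelatinase A, by 0.35 ± 0.08 (0.0320) on a feature under the lower quartile on 7 of 15 arrays. Adamts4, an aggrecanase, fell by 0.56 ± 0.14 (0.0453). In exercised SAMP8 against SAMR1, Adamts4 fell by 0.64 (0.0175) and Timp3, a matrix-bound metalloprotease inhibitor, by 0.71 ± 0.14 (0.00920). Of 22 other proteoglycan core proteins of brain 0 passed between the sedentary strains and 1 rose in exercised SAMP8 against SAMR1, the glypican Gpc4 (0.43 ± 0.11, limma adjusted p = 0.0411). Agrn, agrin (-0.34, limma adjusted p = 0.237), and Sdc2, a syndecan (-0.19, 0.314), had the smallest p between the sedentary strains. The median difference there was -0.002, with 11 positive and 11 negative. Of 8 further small leucine-rich repeat proteins of the matrix 0 passed in any comparison, and 4 of them (Epyc, Podn, Chadl and Nyx) were under the lower quartile on all arrays. Between the sedentary strains 5 of the 8 were positive and 3 negative, and the smallest p belonged to Optc (-0.26 ± 0.16) and Chadl (0.20 ± 0.18). For exercised SAMP8 against SAMR1 it belonged to Podn (0.55) and Nyx (-0.29). The genes next to members in the clusters showed no clear strain direction. Optc had -0.26 ± 0.16, Ecm2 -0.13 ± 0.16 and Epyc 0.11 ± 0.21, and the confidence interval of each spanned 0. Optc lay under the lower quartile on 7 of 15 arrays, Ecm2 on 13 and Epyc on all, so little can be read from their signs. Ecm2 and Epyc were named for their position. After exercise within SAMP8, 0 genes of any of these lists passed.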

How the data were processed

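The deposited values were Cy3 intensity on a linear scale from one-colour arrays, 1 column per sample; limma is named per the submitters' processing notes, with no version or step. The sources used here give no background correction, normalization, slide, scan date or genome build. The sorted columns were nearly the same (96.2% of ranks within 0.05 log2 over the 15 arrays), so the values were taken as normalized, and log2 was taken with no pseudocount. Features were named by the platform annotation. Of 34479 features with values, 27968 had 1 symbol, 38 several and 6473 none. Each gene took the values of its brightest feature by mean over the arrays. Arrays give no depth, and their number limits precision.

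Groups came from the sample titles. Limma 3.58.1 in R 4.3.3 (lmFit, eBayes) was fitted to all 15 arrays in 3 groups, over 16401 genes and, for single features, over 34479 features. All tests are two-sided, with p-values adjusted by Benjamini-Hochberg; errors are limma's SE, and the steps were tested on simulated data. Figures used Python 3.11.15 and matplotlib 3.10.9. Members and lists were chosen with earlier results of these data known. From each other list, the genes that passed were named (at most 5 per comparison), or the 2 with the smallest p; for exercise within SAMP8, where no listed gene passed, only counts are given. Col1a1, Bmp4, Tgfb1, Tgfb2, Ecm2 and Epyc are also given outside this rule for the sedentary strains, chosen with values known.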

Additional observations from a re-analysis of the deposited data

Results flagged for a closer look

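Each of the 10 measured features was examined in each group for 1 array far from the other 4 (30 groups, where chance gives about 1 in 20), and 2 stood out. Bgn on exercised replicate 12 read 7.16 while the other exercised arrays ran from 6.47 to 6.66. The dim Prelp feature read 5.70 on sedentary SAMP8 replicate 9 and 6.00 to 6.06 on the other 4 arrays of that group.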

How the results depend on the processing

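No paired analysis was possible because the groups share no replicate numbers. In the fit over genes Lum passed in both comparisons against SAMR1 under 8 of 9 alternatives and without any single array. Several of these alternatives could hardly move it. Lum has 1 feature, so the mean of features gave the same values. The sorted columns were already nearly alike before quantile normalization or median centring. The exception was the meningeal covariate (0.42, limma adjusted p = 0.359, and 0.36, 0.386). With it 0 members and 0 member features passed in either comparison. Between the sedentary strains 2 members passed, Lum and Dcn, without the dimmest 30% of genes, with a trended and robust prior or with a pseudocount of 16, and under the first 2 of these settings 2 member features passed too. Leaving out each array gave 1 to 2 members and 1 to 2 member features there. For exercised SAMP8 against SAMR1 it gave 2 to 4 members and 0 to 4 member features (0 without SAMR1 replicate 4 or exercised replicate 13, and 1 without SAMR1 replicate 3 or exercised replicate 12), and for exercise within SAMP8 0 and 0. Prelp did not pass with the mean of both its features (0.31, adjusted p = 0.213). With the meningeal covariate Fmod turned sign in all comparisons (-0.0938 between the sedentary strains, -0.003 for exercise and -0.0968 for exercised SAMP8 against SAMR1); 205 genes then passed over the whole table between the sedentary strains, against 497, and 224 against 698 for exercised SAMP8 against SAMR1. Exercise differences near 0 also turned sign for Lum with array weights (0.0332). When single arrays were left out they ran from -0.12 to 0.0389 for Lum, -0.0509 to 0.17 for Dcn, -0.0793 to 0.13 for Ogn, -0.0398 to 0.0818 for Fmod, -0.18 to 0.0358 for Omd and -0.25 to 0.23 for Aspn. For Aspn in exercised SAMP8 against SAMR1 the range was -0.0016 to 0.46. Between the sedentary strains the ranges were 0.62 to 0.75 for Lum, 0.61 to 0.82 for Dcn, 0.36 to 0.64 for Ogn, 0.43 to 0.65 for Omd, 0.28 to 0.39 for Prelp, 0.16 to 0.45 for Fmod, 0.17 to 0.35 for Bgn and 0.15 to 0.40 for Aspn. Of 567 member values under the alternatives, 529 kept their direction and their side of the threshold. These include the exercise differences within SAMP8, where 0 genes passed in the main fit or the 9 alternatives. Their side of the threshold could therefore hardly change. Members under the cut, Aspn among them, had no value in the setting without the dimmest 30% of genes. The cause of these changes was not tested. Quantile normalization and median centring changed no member's call. Dim features, with no detection calls, limit Aspn, Omd and the second features of Dcn and Prelp.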

Other observations

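For each member, the gene outside the family with the closest array-to-array pattern within groups (15 arrays, 13187 genes searched) was also listed, as a description. For Ogn it was the connexin gene Gjb2, from the meningeal list (r = 0.862, and 0.888 without the 2 arrays farthest out in Ogn). For Lum it was Gad2, an enzyme of GABA synthesis, from the cortical neuron list (0.825, and 0.799 without the 2 arrays farthest out in Lum). The others, in none of the lists, were N4bp2l2 for Dcn (0.859), Rnf121 for Bgn (0.932), Wars for Fmod (0.876), Prr5 for Omd (0.899), Ctnnbl1 for Aspn (0.902) and Cdk5rap3 for Prelp (0.937). The smallest p among cortical neuron markers between the sedentary strains belonged to Gad2 (0.28 ± 0.09, limma adjusted p = 0.117) and Slc17a7 (-0.16, 0.531), and in exercised SAMP8 against SAMR1 to Slc17a7 (-0.14) and Gad2 (0.09); 0 of 8 cortical neuron markers passed in any comparison. Of 9 glial markers 1 rose between the sedentary strains, the astrocyte filament Gfap (0.72 ± 0.14, limma adjusted p = 0.00771). Over all genes 1.85% rose there. In exercised SAMP8 against SAMR1 0 of 9 passed, and Gfap (0.48, 0.0675) and Cx3cr1 (-0.60, 0.105) had the smallest p.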
